A study of Homo sapiens with 12 samples.

Results

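The transcription factors described here are the C/EBP family members CEBPA, CEBPB, CEBPD, CEBPE, CEBPG and CEBPZ together with SPI1, 7 genes chosen by name out of 36866 in the deposited table, all 7 of which were found in it. mRNA was sequenced from THP-1 and U-937 cells, human acute myeloid leukemia (AML) lines of monocytic character, after 24 h with honokiol, a biphenolic compound of Magnolia bark, or with 0.1% DMSO as the solvent control. Each of the 4 groups (THP-1 DMSO, THP-1 honokiol, U-937 DMSO and U-937 honokiol) held 3 libraries, 12 in all. The labels list 20 and 35 μM honokiol without saying which line received which, so a difference between the lines in their response to honokiol cannot be told apart from a difference in dose. Each line is a single cultured line, and nothing in the labels says whether the 3 libraries of a group came from separate cultures, so the p-values measure the spread between these libraries only, which may be technical.

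The C/EBP factors (CCAAT/enhancer-binding proteins) are basic leucine zipper (bZIP) proteins that bind DNA as dimers, with each other or with related bZIP proteins. CEBPA drives the commitment of progenitors to the granulocyte and monocyte lineages, CEBPE acts late in granulocyte maturation, and CEBPB and CEBPD are induced in monocytes and macrophages by cytokines, lipopolysaccharide and stress. CEBPG has no activation domain of its own and pairs with other members and with ATF4. CEBPZ shares the CCAAT name but is no bZIP protein, and SPI1 encodes PU.1, an ETS factor that works with the C/EBP factors at myeloid genes. CEBPA and CEBPB are each translated into long and short protein isoforms from a single mRNA, which gene-level values do not separate.

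Levels are given as FPKM, fragments scaled to transcript length and to library size, which can therefore be compared between genes. Fold changes came from edgeR's quasi-likelihood test on the estimated counts, with Benjamini-Hochberg adjustment over all genes tested. A gene counted as differentially expressed (DEG) when its log2 fold change exceeded 1 in size and its adjusted p lay under 0.05. Standard errors (SE) and 95% intervals are on the log2 scale. The estimated counts summed to between 57406966 and 75065752 per library, about 14351742 to 18766438 fragments, since a fragment was worth about 4 counts. The share of mitochondrially encoded genes was 13.7% in THP-1 DMSO replicate 1 and 12.6% in U-937 DMSO replicate 1. In the other libraries it was 5.61% to 7.55%. Several results in which the DMSO replicate 1 libraries stand apart are therefore given with and without them. A result given once may also depend on them. The myeloid character of both lines was seen in their markers, with 10 of 10 myeloid marker genes at a mean FPKM of at least 0.5 in THP-1 and 9 of 10 in U-937, where LILRB4 was near 0. The summed FPKM of the myeloid markers was 420 to 841 per library. Of 15 markers of T, B, erythroid, epithelial and fibroblast cells 11 were in the table, and their summed FPKM was 1.86 to 5.06.

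The stretches of 30 bases printed here lie at the starts of CEBPB and CEBPG, the members with the smallest p-values in U-937 cells, and show motifs found in their promoter windows. Windows of 300 bases (250 before to 50 after an annotated start, RefSeq, GRCh38.p14) were held for 5 of the 7 genes, 7 windows in all, with an upstream and a downstream start each for CEBPB and CEBPG. Capitals mark a CCAAT box, the TGACG core bound by CREB and ATF factors, or a TGANGCAA composite of the kind bound by C/EBP-ATF dimers, on either strand. The stretches run 5′ to 3′ on the plus strand, the strand of both genes.
CEBPB, chr20:50190573-50190602, at the upstream start, with CCAAT: cccctctcgctcCCAATcccggggcggccg
CEBPB, chr20:50190761-50190790, before the downstream start, with TGACG: gaggggccggcgTGACGcagcggttgctac
CEBPG, chr19:33374059-33374088, before the downstream start, with TGATGCAA: ccgcgcggcgtcTGATGCAAcctgccggca
CEBPG, chr19:33373673-33373702, before the upstream start, with ATTGG, the reverse complement of CCAAT: gccggcgctcccATTGGccgggatggcggc

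Among all 35116 windows of the same length, 24.6% held TGACG, 3.22% held TGANGCAA, 34.6% held CCAAT, 10.5% held TTGCNNAA, a C/EBP core, and 27.9% held GAGGAA, a PU.1 core. TGACG lay 57 bases before the downstream start of CEBPB and, of the other windows, in that of CEBPZ, 174 bases before its start. TGANGCAA was found in 1 window, 42 bases before the downstream start of CEBPG, and TTGCNNAA in 0 of the 7. The upstream CEBPG window held CCAAT at 24 bases (printed) and at 85 bases before the start. GAGGAA was found in the windows of CEBPZ and CEBPE. A match gives letters in the window and was not tested as a binding site.

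CEBPB (ENSG00000172216, chromosome 20, 50190830 to 50192668 of the plus strand) had the largest log2 fold change of the members that could be tested, all 7 in THP-1 cells and all but CEBPD in U-937 cells. Its FPKM was 37.5, 45.6 and 61.2 in the THP-1 DMSO libraries and 111, 173 and 173 in the THP-1 honokiol libraries. The 3 honokiol libraries all lay above the 3 DMSO libraries. The means were 48.1 ± 12.03 and 152 ± 35.5 (SD, n = 3), and the log2 fold change was 1.62 (SE 0.22, 95% interval 1.11 to 2.13). The adjusted p was 0.0607 by edgeR's quasi-likelihood test, above the threshold, and CEBPB ranked 19 of 14600 genes by its p-value. Of the 6 fits that each left out a library, CEBPB passed in 1, without THP-1 honokiol replicate 1, the lowest of the treated libraries (log2 fold change 1.80, adjusted p = 0.0368). In the other 5 the adjusted p was 0.107 to 0.282, with a log2 fold change of 1.504 and an adjusted p of 0.129 without DMSO replicate 1, and over the 15 alternatives it ranged from 2.65e-08 to 0.282.

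In U-937 cells the FPKM of CEBPB was 59.6, 45.7 and 45.8 with DMSO and 114, 114 and 118 with honokiol. The treated libraries lay close together and above all controls. The means were 50.4 ± 7.97 and 115 ± 2.23 (SD, n = 3), and the log2 fold change was 1.10 (SE 0.16, 95% interval 0.72 to 1.47). The adjusted p was 0.0624 by edgeR's quasi-likelihood test, at rank 32 of 13726 genes. It was 0.0296 without U-937 DMSO replicate 1, the control library with the high mitochondrial share and the highest CEBPB of its group (log2 fold change 1.27), and 0.123 to 0.228 in the other 5 fits that left out a library. Over the 15 alternatives it ranged from 5.26e-06 to 0.228.

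When the responses of both lines were averaged in a single fit of the 12 libraries, a comparison chosen after the data were seen, CEBPB rose by 1.35 on the log2 scale (SE 0.14, adjusted p = 0.00192 from edgeR), a 2.55-fold increase. It was the single one of the 7 genes past the DEG criterion, which 0.762% of the 16283 genes tested passed in this comparison (0.577% of all genes upward). Without the DMSO replicate 1 libraries of both lines the average was 1.39 (adjusted p = 0.00911), and CEBPB was past the criterion under all 20 alternatives of this fit. The responses of the lines differed by -0.53 (U-937 minus THP-1, log2, 95% interval -1.15 to 0.09, adjusted p = 0.592), which was not past the threshold. With DMSO the log2 difference between the lines was -0.04 (THP-1 minus U-937, 95% interval -0.48 to 0.40, adjusted p = 0.888), and it was 0.25 (adjusted p = 0.346) without the DMSO replicate 1 libraries. In the order of the 4 groups THP-1 honokiol and U-937 honokiol overlapped, as did U-937 DMSO and THP-1 DMSO, and the gap between treated and control libraries was the one without overlap.

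**Figure D1:**
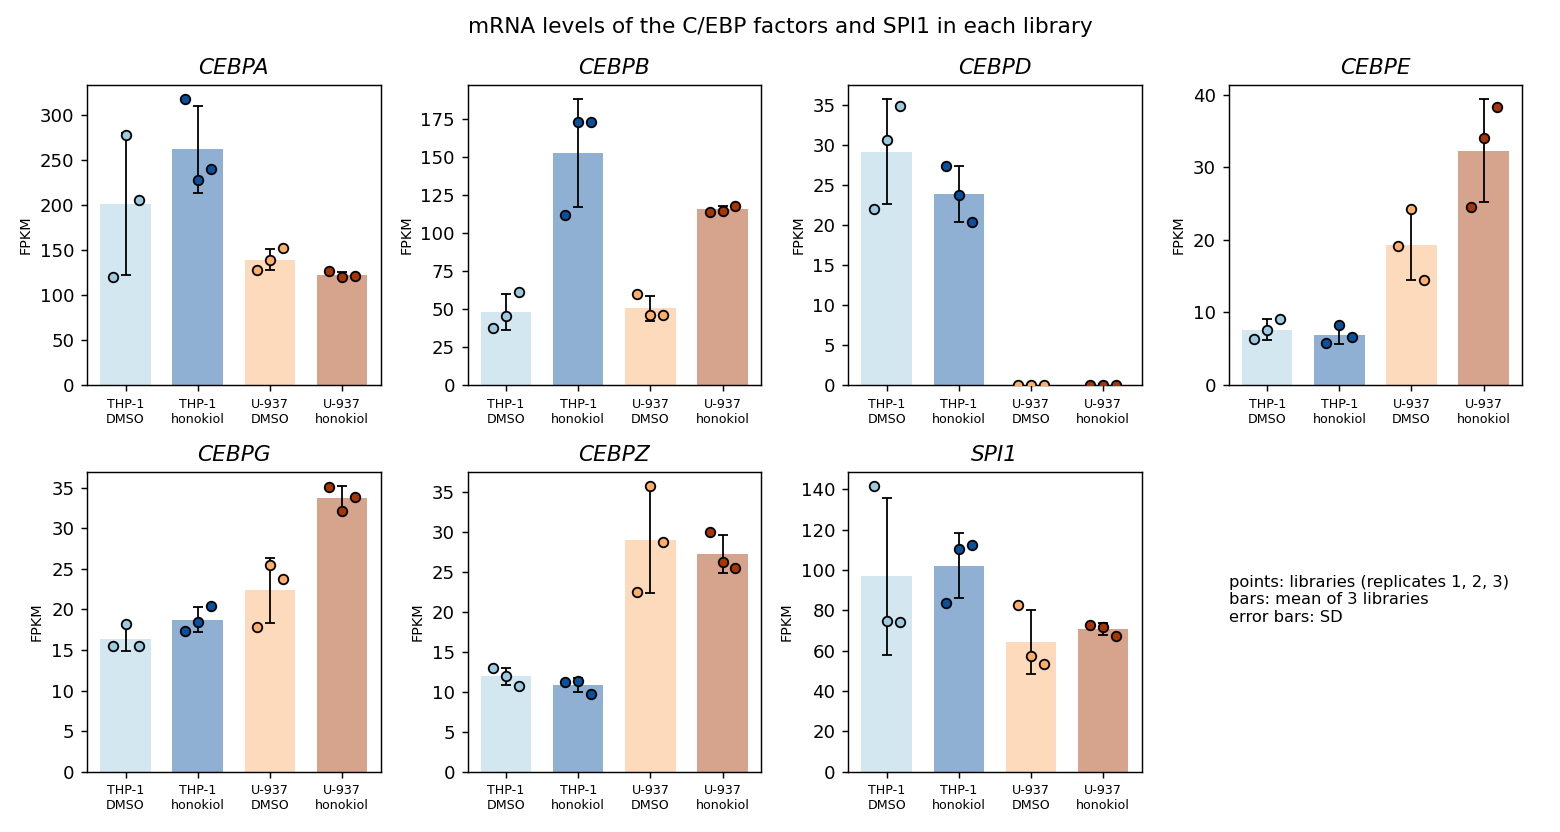
FPKM of each of the 7 genes in each of the 12 libraries (y axes, linear scale from 0, a separate scale for each gene), with THP-1 groups in blue and U-937 groups in orange; points are libraries, bars means of 3 libraries and error bars SD. CEBPB stood at 111 to 173 in the 6 honokiol libraries and at 37.5 to 61.2 in the 6 DMSO libraries, while CEBPD was near 0 in all U-937 libraries.

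By the within-line tests 0 of the 7 genes were DEGs in THP-1 cells, where 0.0411% of the 14600 genes tested were, and 1 of 7 (CEBPB) had an unadjusted p-value under 0.05, as 13.1% of all genes did. In U-937 cells 0 of the 6 tested were DEGs, where 0.0947% of the 13726 genes were, and 4 of 6 (CEBPB, CEBPG, CEBPE and CEBPA) had an unadjusted p-value under 0.05, as 16.7% of all genes did. By DESeq2 CEBPB was the 1 DEG among them in each line, and by limma-trend on the FPKM values there were 0 in THP-1 and 1, CEBPB, in U-937. Treated and control libraries were fully apart for 1 of 7 genes in THP-1 (20.6% of all genes) and for 4 of 6 in U-937 (24.2% of all genes). Of these 4 in U-937, 3 were higher with honokiol (16.7% of all genes) and 1, CEBPA, was lower (7.5% of all genes).

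CEBPG (ENSG00000153879, chromosome 19, 33373685 to 33382686 of the plus strand) had an FPKM of 17.9, 25.5 and 23.8 in the U-937 DMSO libraries and of 35.1, 32.1 and 33.9 in the U-937 honokiol libraries. All treated libraries lay above all controls, with a log2 fold change of 0.51 (SE 0.14, 95% interval 0.18 to 0.84, unadjusted p = 0.00712 and adjusted p = 0.159 by edgeR). Without DMSO replicate 1, the lowest control, the log2 fold change was 0.39 (adjusted p = 0.201 by edgeR). In THP-1 cells the values were 15.5, 18.2 and 15.6 with DMSO and 17.4, 18.4 and 20.5 with honokiol, ranges that overlapped, with a log2 fold change of 0.14 (95% interval -0.16 to 0.44, adjusted p = 0.665). U-937 and THP-1 responses differed by 0.36 (U-937 minus THP-1, 95% interval -0.05 to 0.76, adjusted p = 0.577), and the average of the responses was 0.31 (SE 0.09, adjusted p = 0.0913).

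CEBPE (ENSG00000092067, chromosome 14, 23117304 to 23119616 of the minus strand) had an FPKM of 19.2, 24.3 and 14.5 in U-937 cells with DMSO and of 24.5, 34.0 and 38.4 with honokiol. The lowest treated library was just above the highest control, and the fitted log2 fold change was 0.65 (SE 0.24, 95% interval 0.09 to 1.21, unadjusted p = 0.0281 and adjusted p = 0.243). In THP-1 cells CEBPE was lower, at 6.32, 7.53 and 9.11 with DMSO and 5.73, 8.31 and 6.66 with honokiol, and these ranges overlapped (log2 fold change -0.20, 95% interval -0.67 to 0.27, adjusted p = 0.698). Between the lines the response of CEBPE differed by 0.83 (U-937 minus THP-1, SE 0.33, unadjusted p = 0.0272 and adjusted p = 0.463 by edgeR). It was the 1 member with an unadjusted p under 0.05 for this difference, which 9.37% of the 16283 genes had. After adjustment 0 of the 7 differences passed an adjusted p under 0.05, as 0.111% of all genes did; DESeq2 and limma-trend also passed 0.

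CEBPA (ENSG00000245848, chromosome 19, 33299934 to 33302534 of the minus strand) was the most abundant of the C/EBP mRNAs per length in 12 of 12 libraries. Its FPKM was 120, 278 and 206 in the THP-1 DMSO libraries and 318, 228 and 240 in the THP-1 honokiol libraries, with wide and overlapping ranges. The log2 fold change was 0.34 (SE 0.27, 95% interval -0.28 to 0.97, adjusted p = 0.603). The lowest value belonged to DMSO replicate 1, the library with the high mitochondrial share, and without it the log2 fold change was 0.11 (adjusted p = 0.842). In U-937 cells CEBPA was 128, 138 and 152 with DMSO and 127, 120 and 121 with honokiol, so that the highest treated library lay just under the lowest control. The log2 fold change was -0.27 (SE 0.12, 95% interval -0.54 to -0.0037, unadjusted p = 0.0476 and adjusted p = 0.294). U-937 and THP-1 responses differed by -0.63 (95% interval -1.31 to 0.05, adjusted p = 0.571).

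SPI1 (ENSG00000066336, chromosome 11, 47354860 to 47378547 of the minus strand) had an FPKM of 142, 74.7 and 74.4 in THP-1 DMSO libraries and of 83.6, 111 and 112 in THP-1 honokiol libraries. Again DMSO replicate 1 stood apart, as the highest of the 6. The log2 fold change was -0.0049 (SE 0.30, 95% interval -0.69 to 0.68, adjusted p = 0.995) with all libraries and 0.44 (adjusted p = 0.326) without that library, so its direction turned on a single control. In U-937 cells SPI1 was 82.5, 57.5 and 53.3 with DMSO and 72.9, 71.7 and 67.4 with honokiol, again with replicate 1 the highest control and with overlapping ranges. The log2 fold change was 0.03 (95% interval -0.43 to 0.49, adjusted p = 0.954) and 0.29 (adjusted p = 0.279) without DMSO replicate 1. The part of the mitochondrial share in these values was not tested.

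CEBPD (ENSG00000221869, chromosome 8, 47736913 to 47738164 of the minus strand) was expressed in THP-1 cells and nearly absent from U-937 cells. Its FPKM was 22.1, 30.6 and 34.9 in THP-1 DMSO libraries and 27.4, 23.8 and 20.4 in THP-1 honokiol libraries, with a log2 fold change of -0.33 (SE 0.18, 95% interval -0.76 to 0.09, adjusted p = 0.465). Without DMSO replicate 1, the lowest THP-1 control, the log2 fold change was -0.46 (adjusted p = 0.337 by edgeR). In U-937 cells the FPKM of CEBPD was 0, 0.02 and 0 with DMSO and 0.06, 0 and 0.06 with honokiol, from estimated counts of 0, 3 and 0 and of 6, 0 and 6. CEBPD was too low to be tested within U-937, and a difference of responses with that line cannot be interpreted. Taken as about 2002 fragments in THP-1 DMSO libraries against 1 in U-937 DMSO libraries, the ratio per library size was 2070 (95% counting interval 370 to 81600), and with honokiol, from 1882 against 3 fragments, it was 526 (95% counting interval 180 to 2550). These intervals cover counting error only.

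CEBPZ (ENSG00000115816, chromosome 2, 37201612 to 37231596 of the minus strand) had an FPKM of 12.97, 11.98 and 10.77 in THP-1 DMSO libraries and of 11.3, 11.4 and 9.77 with honokiol. In U-937 cells it was 22.5, 35.7 and 28.7 with DMSO and 29.99, 26.2 and 25.5 with honokiol. The treated and control ranges overlapped in both lines (log2 fold changes -0.20 and -0.17, adjusted p = 0.596 and 0.644), while all U-937 libraries lay above all THP-1 libraries. Without DMSO replicate 1 of the line, the fold changes were -0.085 and -0.31 (adjusted p = 0.807 and 0.358 by edgeR). CEBPZOS overlaps CEBPZ on the opposite strand over 12114 bases, and the sources used here do not say whether the counting used the strand, so reads of this pair cannot be told apart with certainty. CEBPZOS had an FPKM of 5.12 to 7.91 in THP-1 and of 8.67 to 10.5 in U-937 libraries.

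**Figure D2:**
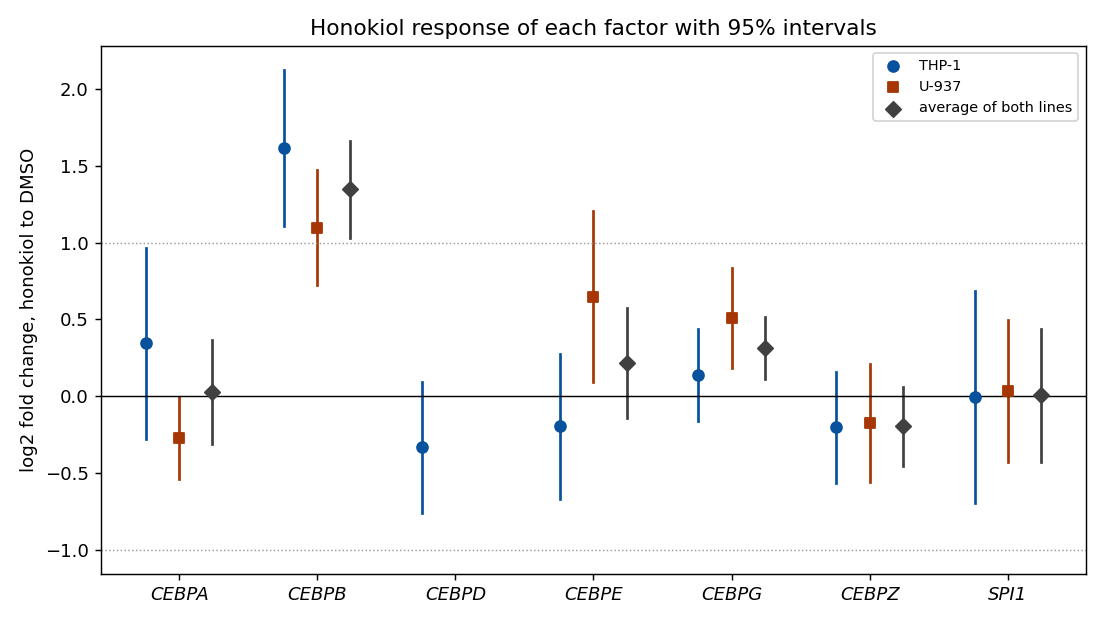
Log2 fold change of honokiol to DMSO (y axis) for each gene (x axis) in THP-1 (circles), in U-937 (squares) and averaged over both lines (diamonds), with 95% intervals; dotted lines mark the DEG limit of 1. The intervals of CEBPB lay above 0 in all 3 comparisons, at 1.62, 1.10 and 1.35, and for CEBPD the THP-1 value alone is drawn.

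With DMSO, 3 of the 7 genes differed between THP-1 and U-937 past the DEG criterion, as 34% of the 16283 genes tested did (19.7% higher and 14.4% lower in THP-1). CEBPD was higher in THP-1 (adjusted p = 1.13e-07), and CEBPE (log2 difference THP-1 minus U-937 -1.30, SE 0.24, adjusted p = 5.98e-04) and CEBPZ (-1.23, SE 0.17, adjusted p = 6.85e-05) were lower. CEBPD reached the filter of this fit only through its THP-1 libraries, with U-937 values of 0 to 0.06 FPKM. For each of the 3 genes the libraries of the lines did not overlap, as for 56.7% of all genes. CEBPG was also lower in THP-1 but under the fold limit (-0.40, SE 0.13, adjusted p = 0.0237), and its adjusted p ranged from 0.00632 to 0.0955 over the 21 alternatives. CEBPA (0.56, 95% interval 0.08 to 1.04, adjusted p = 0.0502) and SPI1 (0.65, 95% interval 0.03 to 1.26, adjusted p = 0.0715) stood just outside the threshold. Without the DMSO replicate 1 libraries the adjusted p was 0.00703 for CEBPA (log2 difference 0.77) and 0.0246 for SPI1 (0.46), both under the fold limit, and the same count of 3 genes passed. CEBPA was at 0.29 (adjusted p = 0.246) without THP-1 DMSO replicate 2 and SPI1 at 0.20 (adjusted p = 0.441) without THP-1 DMSO replicate 1 alone. Over the 21 alternatives the adjusted p was 0.00226 to 0.246 for CEBPA and 0.0238 to 0.441 for SPI1.

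The order of the 4 groups followed the line for CEBPD, CEBPE and CEBPZ and the treatment for CEBPB. For CEBPA both THP-1 means lay above both U-937 means, but the DMSO groups of the lines overlapped. For CEBPE U-937 honokiol lay above U-937 DMSO and both lay above the THP-1 groups, which overlapped each other. For CEBPG U-937 honokiol stood above the other 3 groups, whose neighbours overlapped. The means of SPI1 were 102 and 96.9 in the THP-1 groups and 70.7 and 64.4 in the U-937 groups, and the DMSO groups of the lines overlapped through U-937 replicate 1. In bulk RNA, fewer cells that make an mRNA and less of it per cell cannot be told apart.

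Among the summed FPKM of the 5 bZIP members (CEBPA, CEBPB, CEBPD, CEBPE and CEBPG), the share of CEBPB was 18.6%, 12% and 18.8% in THP-1 DMSO libraries and 23.2%, 38.2% and 37.6% in THP-1 honokiol libraries. In U-937 libraries it was 26.5%, 19.5% and 19.4% with DMSO and 38.0%, 38.1% and 37.9% with honokiol. Treated and control libraries did not overlap in either line. The mean share of CEBPA in THP-1 cells was 65.3% ± 7.04 with DMSO and 56.3% ± 8.64 with honokiol, and 60.2% ± 3.77 and 40.3% ± 1.67 in U-937 (SD, n = 3). The level of CEBPB relative to that of CEBPA went from a mean ratio of 0.258 ± 0.0817 with DMSO to 0.610 ± 0.225 with honokiol in THP-1. In U-937 cells it was 0.366 ± 0.0873 with DMSO and 0.943 ± 0.0379 with honokiol. The exact two-sided permutation test of this ratio gave p = 0.1 in each line, the smallest value that 3 libraries against 3 allow. CEBPD made up 9.90% ± 1.60 of the sum in THP-1 cells with DMSO and 5.14% ± 0.648 with honokiol, and in U-937 cells with DMSO the shares of CEBPE and CEBPG were 8.36% ± 2.12 and 9.64% ± 1.52, respectively.

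**Figure D3:**
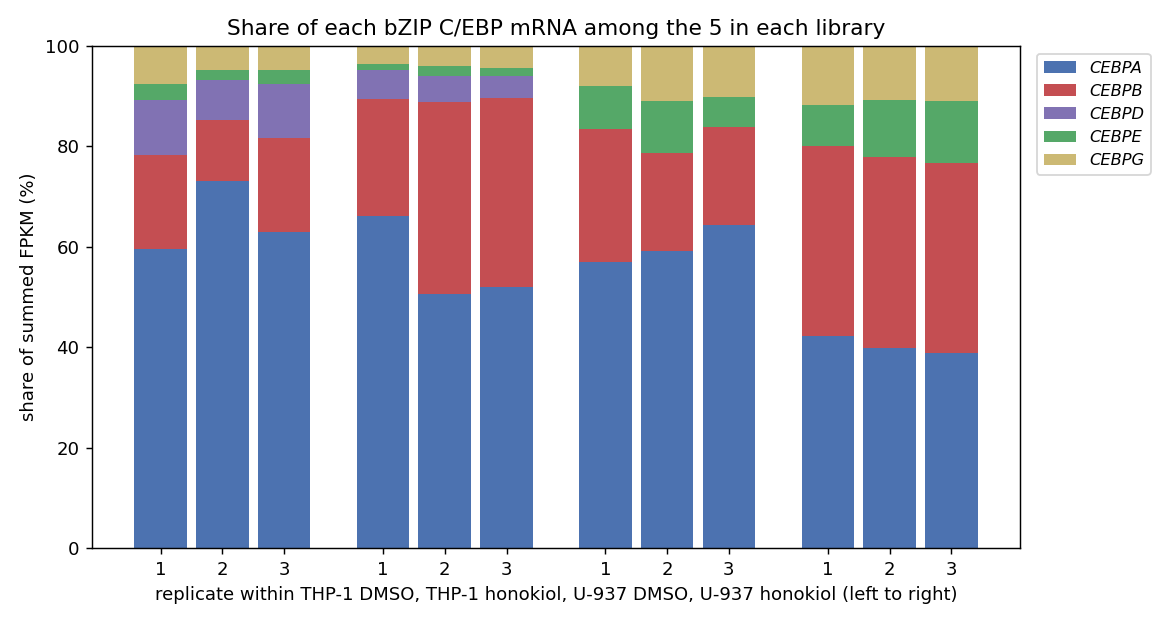
Share of each of the 5 bZIP C/EBP mRNAs in their summed FPKM (y axis, %) in each library (x axis, replicate numbers within the 4 groups). CEBPB (red) took 12% to 26.5% of the sum in the DMSO libraries and 23.2% to 38.2% in the honokiol libraries, and CEBPA (blue) 38.9% to 42.2% in U-937 cells with honokiol.

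DDIT3, which encodes CHOP, a bZIP protein induced by stress that pairs with C/EBP factors, was the gene closest to the DEG criterion among the 12 dimer partners listed. In THP-1 cells its FPKM was 9.88, 16.1 and 13.3 in the controls and 24.4, 26.2 and 53.8 with honokiol. In U-937 cells it was 4.76, 5.49 and 4.66 with DMSO and 10.7, 18.4 and 15.0 with honokiol. All treated libraries lay above all controls of their line, with log2 fold changes of 1.36 (SE 0.32, adjusted p = 0.176) and 1.47 (SE 0.23, adjusted p = 0.0637). Averaged over both lines DDIT3 rose by 1.41 on the log2 scale (SE 0.21, adjusted p = 0.00846). NFIL3, a bZIP repressor, had log2 fold changes of 0.63 for THP-1 cells and 0.34 for U-937 cells (adjusted p = 0.21 and 0.525), and ATF4, the stress-response partner of CEBPG, of 0.22 and 0.57 (adjusted p = 0.636 and 0.177). JUN was 4.18 to 8.69 in the THP-1 libraries and 15.2 to 65.6 in the U-937 libraries, where its log2 fold change was 0.83 (adjusted p = 0.287). Of the 11 partners tested in THP-1 and the 10 in U-937 0 were DEGs, 9 and 8 had a positive fold change, and the medians were 0.45 and 0.37, beside -0.0011 and 0.02 over all genes tested in THP-1 and U-937.

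Among 14 regulators of C/EBP level or activity, the tribbles pseudokinases TRIB1 and TRIB2 direct the breakdown of CEBPA, and TRIB3 is a relative that responds to ATF4 and CHOP. TRIB3 had an FPKM of 19.5, 23.6 and 22.7 with DMSO and 25.4, 38.5 and 67.8 with honokiol in THP-1, and of 31.6, 31.2 and 38.7 with DMSO and 60.3, 61.3 and 51.6 with honokiol in U-937. The treated libraries lay above the controls in both lines, with log2 fold changes of 0.94 (adjusted p = 0.292) and 0.68 (adjusted p = 0.0833). TRIB2 was 8.58, 8.26 and 6.24 with DMSO and 4.21, 6.02 and 5.33 with honokiol in U-937 (log2 fold change -0.67, adjusted p = 0.187) and at most 0.92 in THP-1. Of the 13 genes of this list tested in each line 0 were DEGs, and the medians were -0.02 and 0.10.

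Genes that the C/EBP factors and PU.1 are known to act on, and other myeloid factors, held 0 DEGs in either line. Of the other myeloid transcription factors 14 of 18 tested had a negative fold change in THP-1 and 11 of 15 in U-937 (medians -0.35 and -0.15). MYB, a factor of immature progenitors, was 67.0, 51.5 and 39.0 with DMSO and 38.8, 27.9 and 26.4 with honokiol in THP-1, and 40.7, 38.7 and 48.6 with DMSO and 33.9, 26.7 and 23.1 with honokiol in U-937. Its treated libraries lay below its controls in both lines (log2 fold changes -0.83 and -0.70, adjusted p = 0.284 and 0.131). Without DMSO replicate 1 of the line, the fold changes were -0.55 and -0.71 (adjusted p = 0.361 and 0.174 by edgeR). GATA2, a stem cell factor, was at -0.54 for THP-1 cells (log2, adjusted p = 0.25). Of the cytokine receptor genes 8 of 10 had a negative fold change in THP-1 (median -0.62) and 5 of 8 in U-937 (median -0.07). CSF3R, the G-CSF receptor and a known CEBPA target, was among the positive ones in THP-1, at 12.5, 15.1 and 15.8 with DMSO and 21.5, 20.3 and 22.2 with honokiol (log2 fold change 0.51, adjusted p = 0.176), and IL6R was among the negative ones in both lines (-0.62 and -0.37, adjusted p = 0.215 and 0.235).

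Of the granule protein genes, classical targets of CEBPA and CEBPE, 12 of 14 tested had a negative fold change in U-937 (median -0.72) and 9 of 15 in THP-1 (median -0.28). CTSG, which encodes cathepsin G, was 1631, 2117 and 2226 with DMSO and 1437, 1004 and 1427 with honokiol in THP-1, and 223, 183 and 208 with DMSO and 131, 151 and 80.2 with honokiol in U-937. No treated library reached a control of its line (log2 fold changes -0.68 and -0.86, adjusted p = 0.238 and 0.148). Of the monocyte and macrophage genes 14 of 20 had a positive fold change in U-937 (median 0.30) and 11 of 17 in THP-1 (median 0.01). CD14, the lipopolysaccharide co-receptor, was 2.19, 2.25 and 3.39 with DMSO and 4.94, 8.75 and 4.48 with honokiol in THP-1 (log2 fold change 1.16, adjusted p = 0.228). Within U-937 the smallest p-value on this list was that of CD300E, an activating receptor of monocytes, whose fold change was negative, with FPKM 0.58, 0.59 and 0.86 with DMSO and 0.13, 0.22 and 0.07 with honokiol (log2 fold change -2.36, adjusted p = 0.0776), and which was tested only because its DMSO values reached the filter. ITGAM, the CD11b integrin chain, was 3.07, 2.58 and 2.26 with DMSO and 3.88, 5.47 and 4.38 with honokiol in U-937 (log2 fold change 0.70, adjusted p = 0.175). FPR1, the formyl peptide receptor, was 1.63, 1.09 and 0.77 with DMSO and 0.33, 0.28 and 0.21 with honokiol in THP-1 (log2 fold change -2.15, adjusted p = 0.134). Like CD300E, FPR1 was tested only because its DMSO values reached the filter.

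Inflammatory genes with known C/EBP sites had a negative fold change for 5 of 8 tested in THP-1 and 8 of 10 in U-937, with medians of -0.49 and -0.62. TNF was 27.0, 17.8 and 13.5 with DMSO and 5.93, 7.46 and 3.78 with honokiol in THP-1 (log2 fold change -1.84, adjusted p = 0.136), and IL1RN, the interleukin-1 receptor antagonist, was 6.07, 3.49 and 3.48 with DMSO and 1.14, 1.37 and 1.09 with honokiol (log2 fold change -1.93, adjusted p = 0.0814). DMSO replicate 1 was the highest control for both, and without it the log2 fold changes were -1.46 and -1.55 (adjusted p = 0.209 and 0.104). In U-937 TNF had overlapping ranges (log2 fold change -1.04, adjusted p = 0.326), with -0.50 (adjusted p = 0.607) without DMSO replicate 1. The U-937 genes of this list with smaller p-values were CCL2, a monocyte chemokine (-1.41, adjusted p = 0.312), and HP, haptoglobin, which was higher with honokiol in mean but overlapped (2.04, adjusted p = 0.313). The FPKM of HP in U-937 was 0.31, 1.13 and 0.08 with DMSO and 0.60, 2.17 and 3.98 with honokiol. HP was tested there only because its honokiol values reached the filter. Without DMSO replicate 1, CCL2 was at -0.81 (adjusted p = 0.567) and HP at 1.80 (adjusted p = 0.464), both by edgeR. Lipid genes of the adipocyte program that C/EBP factors share with PPARG had a positive fold change for 9 of 12 in THP-1 and 10 of 11 in U-937, with medians of 0.38 and 0.71. PLIN2, a lipid droplet coat protein, was 24.4, 16.3 and 35.4 with DMSO and 101, 117 and 157 with honokiol in THP-1, and 10.0, 29.1 and 6.83 with DMSO and 86.1, 139 and 330 with honokiol in U-937 (log2 fold changes 2.25 and 3.52, adjusted p = 0.0607 and 0.0842). The log2 fold change of PPARG itself was 0.67 for THP-1 cells (adjusted p = 0.174), and that of SCD, stearoyl-CoA desaturase, was 1.04 for U-937 cells (adjusted p = 0.0872).

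Averaged over both lines, 5 of the 124 genes tested in these lists were past the DEG criterion, beside 0.762% of all genes. The lists were chosen with earlier results of these data known, and the average after the data were seen. These shares are therefore no test of the lists. DDIT3 and PLIN2 (log2 average 2.87, adjusted p = 0.00771) rose, and TNF (-1.44, adjusted p = 0.0459), IL1RN (-1.25, adjusted p = 0.0253) and S100A12 (adjusted p = 0.0487) fell on average. In U-937 the ranges of IL1RN overlapped (3.91, 3.63 and 1.93 with DMSO, 1.61, 2.89 and 2.45 with honokiol), as did those of TNF. In THP-1 the ranges of S100A12 overlapped (7.81, 4.44 and 7.95 with DMSO, 3.31, 8.69 and 3.38 with honokiol). S100A12 was listed at 0 in 2 of the 3 U-937 honokiol libraries, so no fold is given for it. Without the DMSO replicate 1 libraries DDIT3 and PLIN2 kept their calls (adjusted p = 0.0367 and 0.0372), while TNF (-0.97, adjusted p = 0.13), IL1RN (-0.94, adjusted p = 0.0707) and S100A12 (adjusted p = 0.0777) did not pass.

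**Figure D4:**
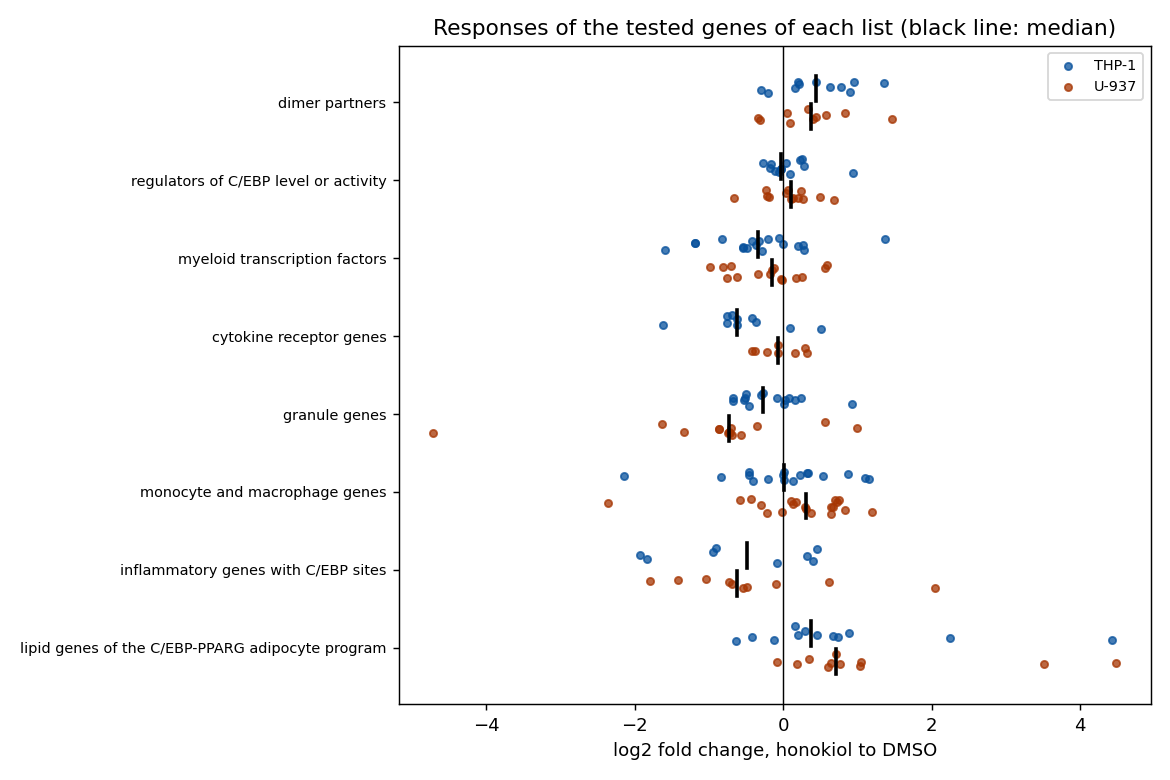
Log2 fold change of honokiol to DMSO (x axis) for every tested gene of 8 gene lists (y axis) in THP-1 (blue) and U-937 (orange); black lines are list medians. The medians of the dimer partners were 0.45 and 0.37 and those of the inflammatory genes -0.49 and -0.62, beside -0.0011 and 0.02 over all genes, and no gene drawn was a DEG.

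At the loci, CEBPA-DT, a noncoding RNA that starts 323 bases from the CEBPA start on the other strand, was 2.58, 6.16 and 8.03 with DMSO and 11.3, 11.7 and 17.0 with honokiol in THP-1 cells. These ranges did not overlap (log2 fold change 1.22, SE 0.36, adjusted p = 0.263, and 0.90, adjusted p = 0.251, without DMSO replicate 1, the lowest control). In U-937 it was 0.33, 0.30 and 0.68 with DMSO and 0.67, 1.03 and 0.55 with honokiol (log2 fold change 0.70, adjusted p = 0.447). CEBPA-DT was tested within U-937 only because its honokiol values reached the filter. With DMSO CEBPA-DT was higher in THP-1 than in U-937 by 3.70 on the log2 scale (SE 0.44, adjusted p = 2.20e-05). CEBPG starts 71151 bases from CEBPA on the same chromosome, and the log2 fold changes of this pair in U-937 were 0.51 and -0.27. CEBPB-AS1 overlaps CEBPB on the opposite strand over 669 bases and was at 0.05 to 0.19 FPKM in every library, against 37.5 to 173 for CEBPB. CEBPA is overlapped on the opposite strand by ENSG00000267580 over 1235 bases and by ENSG00000267727 over 662 bases. As for CEBPZ, reads of these overlaps cannot be told apart with certainty.

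The genes whose log2(FPKM + 0.5) followed each member most closely over the 12 libraries were sought among 11389 genes, as a description in which the points share line, treatment and library. For CEBPB they were RCN3 (Pearson r = 0.924), ADAM17 (0.922) and SLC48A1 (0.913), with r of 0.838 to 0.982 within each line. For CEBPG they were UGDH (0.971), SEC23A (0.965) and HSPA13 (0.962), and for CEBPE ITGA3, KCTD9 and JUN (0.982 to 0.985), the last of which encodes a bZIP protein and stood on the list of dimer partners. CEBPD was followed by SUSD3, RET and ARMCX6 (r = 0.999 each), genes that were also near 0 in U-937. CEBPZ was followed by TFDP1, ACP1 and EIF2S1 (0.991 to 0.995), SPI1 by HIF1A (0.963), SGO1 and RDX, and CEBPA by DLL1 (0.963), PWWP2B and FAM53B. Within a single line several of these r were lower: 0.367 to 0.515 for the CEBPA genes within U-937, 0.473 to 0.666 for the CEBPE genes within THP-1, -0.104 for RET and 0.342 for ARMCX6 with CEBPD within U-937, and 0.611 for RDX with SPI1 within U-937.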

How the data were processed

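Poly(A) mRNA of 12 libraries was sequenced with paired ends. The deposited table holds FPKM values, normalized to transcript length and library size by the authors, and estimated counts, whole numbers that the authors did not normalize. The submitters' processing notes name Bowtie 0.12.2, HISAT2 2.0 and StringTie 1.3.0, without roles, and a mouse build, mm8. The table holds human Ensembl genes: 35762 of 36866 were found in GENCODE 29, 35687 of them overlapping its GRCh38 position on the same strand. The authors' annotation release and any use of strand in counting are not given in the sources used here. The labels and the methods name different instruments, and the series text describes a microarray. The low values of the estimated counts, as deposited, peak at 4 (17264 values, against 6764 at 3 and 4016 at 5), so about 4 counts stand for a fragment.

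Genes that reached 0.5 FPKM in 3 or more libraries of a fit were tested by edgeR 4.0.16 (R 4.3.3) with TMM normalization and quasi-likelihood tests, within each line and in a fit of 12 libraries with 4 groups for the differences between lines and responses. The thresholds of the DEG criterion are those of the study's methods, which name no test for the sequencing data. Calls made here need not match the study's. The study reported a significant rise of CEBPB, which did not pass the within-line fits reported here. The script was tested on simulated data. DESeq2 1.42.0, limma 3.58.1 and the other alternatives are described with their effect below. FPKM values carry no interval, and counting intervals use 95% confidence. Of 66 pairs of libraries 0 held identical counts. Named are the 7 members, up to 3 genes per list and line with the smallest p-values, DEGs of the lists, dimer partners, locus neighbours and, for likeness, 3 genes per member; TRIB1 and the genes past the criterion in the average response were named after their values were seen. The members and lists were chosen with earlier results of these data known, and the average response and the fits without the DMSO replicate 1 libraries were chosen after seeing the data. Protein sequences and promoter windows of CEBPD and SPI1 were not analysed here.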

Additional observations from a re-analysis of the deposited data

How the results depend on the processing

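Of 622 log2 fold changes of the 7 genes under alternatives, 576 kept their direction and side of the DEG criterion (for differences of response, of the adjusted p), 9 newly passed it and 37 changed sign. Within a line, the fit without DMSO replicate 1 is also the fit without the high-mitochondrial library. It is counted under both names in these numbers and among the 15 alternatives within a line. By the adjusted p at any fold change 21 came under 0.05, 9 of them of CEBPB within a line, 6 of CEBPA and 5 of SPI1 between the lines and 1 of CEBPG in the average, and 4 of CEBPG between the lines no longer did. The count of DEGs among the 7 genes went from 0 to 1, CEBPB, in THP-1 by DESeq2 and with all 12 libraries in a single fit (adjusted p = 0.0148), and was 0 to 1 with 1 library left out. In U-937 it went to 1, again CEBPB, by DESeq2, by limma-trend with a pseudocount of 0.5 or 0.1 (adjusted p = 0.0438 and 0.047), in the 12-library fit (0.031) and without DMSO replicate 1, the high-mitochondrial library. With any other single U-937 library left out it was 0. The cause was not tested. The counts of 3 between the lines (4 at any fold change, with CEBPG), of 0 differences of response and of 1 in the average held under all alternatives tried.

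The sign changes were all of values near 0 or of CEBPD. SPI1 in THP-1 was 0.13 by limma-trend with either pseudocount, 0.087 with the replicate block, 0.44 without the high-mitochondrial libraries and -0.19 to 0.44 with 1 library left out, and in U-937 it was -0.12 to 0.29 with 1 library left out. Its difference of response was -0.025 with the block, -0.16 without the high-mitochondrial libraries and -0.43 to 0.29 with 1 library left out. That of CEBPZ was -0.23 without the high-mitochondrial libraries and -0.11 to 0.19 with 1 library left out. Between the lines CEBPB was 0.25 without the high-mitochondrial libraries and -0.20 to 0.15 with 1 library left out. In the average SPI1 was -0.0016 with RLE size factors and by DESeq2 and -0.088 to 0.24 with 1 library left out, CEBPA -0.095 without the high-mitochondrial libraries and -0.082 to 0.17 with 1 left out, and CEBPD -0.090 by limma-trend with a pseudocount of 0.5.

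Same-numbered libraries of a line did not deviate together (r = -0.137 to 0.0878). Between the DMSO groups of the lines, same-numbered libraries had r of 0.0237 to 0.101, and other pairs had -0.108 to 0.0247. Replicate 1 was also the DMSO library with the high mitochondrial share in both lines. Whether the numbers of the DMSO libraries mark something shared was not tested. With the replicate block 0 genes were DEGs in either line, CEBPB had an adjusted p of 0.162 and 0.221, and in the average it kept its call (0.00888); the block changed no other call of the 7 genes. DEGs over all genes numbered 0 to 250 in THP-1 (6 in the fit reported) and 0 to 223 in U-937 (13), the highest by DESeq2, 0 to 244 for the difference of responses (18), 4277 to 8610 between the lines (5542) and 59 to 431 in the average (124). Of the gene lists, DESeq2 called up to 3 genes per list and line and the 12-library fit up to 2, against 0. The median of all genes stood 0.0450 (THP-1) and 0.0891 (U-937) above 0 on the scale of mean FPKM.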
